A study of Mus musculus with 11 samples.

Results

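Macrophages sorted from mouse hearts 7 days after injury were compared with the same sorted population from uninjured hearts, by the microRNAs (miRNAs) they carry. The comparison takes 5 of the 11 arrays of the study, chosen by their titles: 2 arrays of Ly6clow/CX3CR1high macrophages from uninjured hearts (day 0) and 3 arrays of Ly6clow/CX3CR1high macrophages from day 7. All animals were Cx3cr1GFP/+ mice aged 2 to 3 months, a knock-in in which GFP stands in for 1 copy of the fractalkine receptor gene, so that both groups lack that copy. Cells were taken as GFP+ cells, and injury was a cryoinjury, in which the ventricle is frozen locally to model an infarct. Day 0 hearts had no surgery, so that the effect of the lesion and that of the operation cannot be told apart. Each array received Cy3-labelled miRNA from 100 ng of total RNA. The labels call the samples independent biological replicates and do not say whether animals were pooled.

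miRNAs are short RNAs that are cut from a hairpin precursor, often as a pair of arms named 5p and 3p. They guide Argonaute proteins to messenger RNAs mainly through the seed, bases 2 to 8 of the mature strand, and lower the output of those messengers. In macrophages they tune inflammatory signalling, and the population with low Ly6C and high CX3CR1 holds the resident cells of the uninjured heart and the reparative cells that follow the first inflammatory wave after infarction.

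A few mature sequences that the results turn on are printed from RefSeq (GRCm38.p6), 5′ to 3′ with the seed in capitals. The first set holds the miRNAs that changed on arrays where every sample was measured, each with relatives that share its seed or nearly do.

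miR-10a-5p: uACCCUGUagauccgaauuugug

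miR-10b-5p: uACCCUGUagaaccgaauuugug

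miR-99a-5p: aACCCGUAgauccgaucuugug

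miR-99b-5p: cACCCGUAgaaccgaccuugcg

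miR-21a-5p: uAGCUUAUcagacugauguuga

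miR-30a-5p: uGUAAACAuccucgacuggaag

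miR-30c-5p: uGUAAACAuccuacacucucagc

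miR-30e-5p: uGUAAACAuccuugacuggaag

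The second set holds called miRNAs of known families that were undetected on at least 1 day 0 array, with miR-221-3p, which has the seed of miR-222-3p.

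miR-222-3p: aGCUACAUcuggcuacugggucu

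miR-221-3p: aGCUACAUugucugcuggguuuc

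miR-199a-3p: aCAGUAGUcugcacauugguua

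miR-214-3p: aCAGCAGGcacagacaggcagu

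The third set shows further called miRNAs that were higher at day 7 (miR-378a-3p and miR-1897-5p are named only). Their strands are rich in G (47.6% to 70.0% of bases, against a median of 27.3% over the 296 of 369 tested miRNAs with a sequence). Over the 10 of 12 miRNAs called higher that have a sequence, the median was 39.7%.

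miR-680: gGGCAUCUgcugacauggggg

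miR-877-5p: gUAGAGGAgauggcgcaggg

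miR-705: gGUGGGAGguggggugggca

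miR-1892: aUUUGGGGacgggagggaggau

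miR-1982-5p: uUGGGAGGguccuggggagg

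Both groups lay on dim arrays. Measured by the 75th percentile over the 126 miRNAs that every one of the 11 arrays detected, brightness was 163 and 55.7 scanner units on day 0 replicates 1 and 2, and 323, 114 and 260 on day 7 replicates 1 to 3. The scanner flagged 173 and 151 of 1247 miRNAs as detected at day 0 and 270, 208 and 246 at day 7. Day 0 replicate 2 and day 7 replicate 2, the dimmest array of each group, shared a slide, and the other 3 arrays lay on slide 1. Values below are log2 signals after each array was divided by its own 75th percentile, so that 0 is that percentile. A change is the day 7 mean minus the day 0 mean, with its standard error (SE) from limma fitted over all groups. On this scale the 126 miRNAs had a median change of -0.21, and without scaling the same median was 0.94. The myeloid markers miR-223-3p and miR-142a-3p were detected on all 5 arrays. With 2 and 3 arrays, precision is limited by their number. The spread behind each p-value was pooled over the 10 samples of all 4 groups, so that it takes in the day 3 and day 30 arrays.

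Day 7 differed from day 0 at an adjusted p of 0.05 in 14 of 369 miRNAs, or 3.79% (12 higher, 3.25%, and 2 lower, 0.542%). Among the 134 miRNAs detected on all 5 arrays 3 passed (2.24%): miR-10a-5p and miR-21a-5p rose and miR-30a-5p fell. At an unadjusted p under 0.05 there were 135 of 369 (36.6%), but 83 of them were undetected on all 5 arrays. Among the 134, 21 had such a p (15.7%), with 6 higher (4.48%) and 15 lower (11.2%). The values at background are not read as falls: 92 tested miRNAs were undetected on all 5 arrays, and their median change was -1.33, with 10th and 90th percentiles of -1.33 and -1.31. Scaled background lies higher on dimmer arrays: the lowest detected log2 value was -6.63 and -5.12 at day 0 and -7.89, -6.35 and -7.31 at day 7. The split of 12 higher and 2 lower depended on scaling: unscaled it was 45 and 0, and with quantile normalization 29 and 10. The count of 14 rested on few arrays. Leaving out the third day 7 array, the second or the third day 3 array or the first day 30 array gave 0 calls by limma, where 38 to 125 miRNAs had an unadjusted p under 0.05. Calls numbered 5 when the first day 3 array was left out and 9 when the first day 7 array was. They numbered 43 when the second day 0 array was left out, 114 for the second day 7 array and 169 for the first day 0 array.

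**Figure D1:**
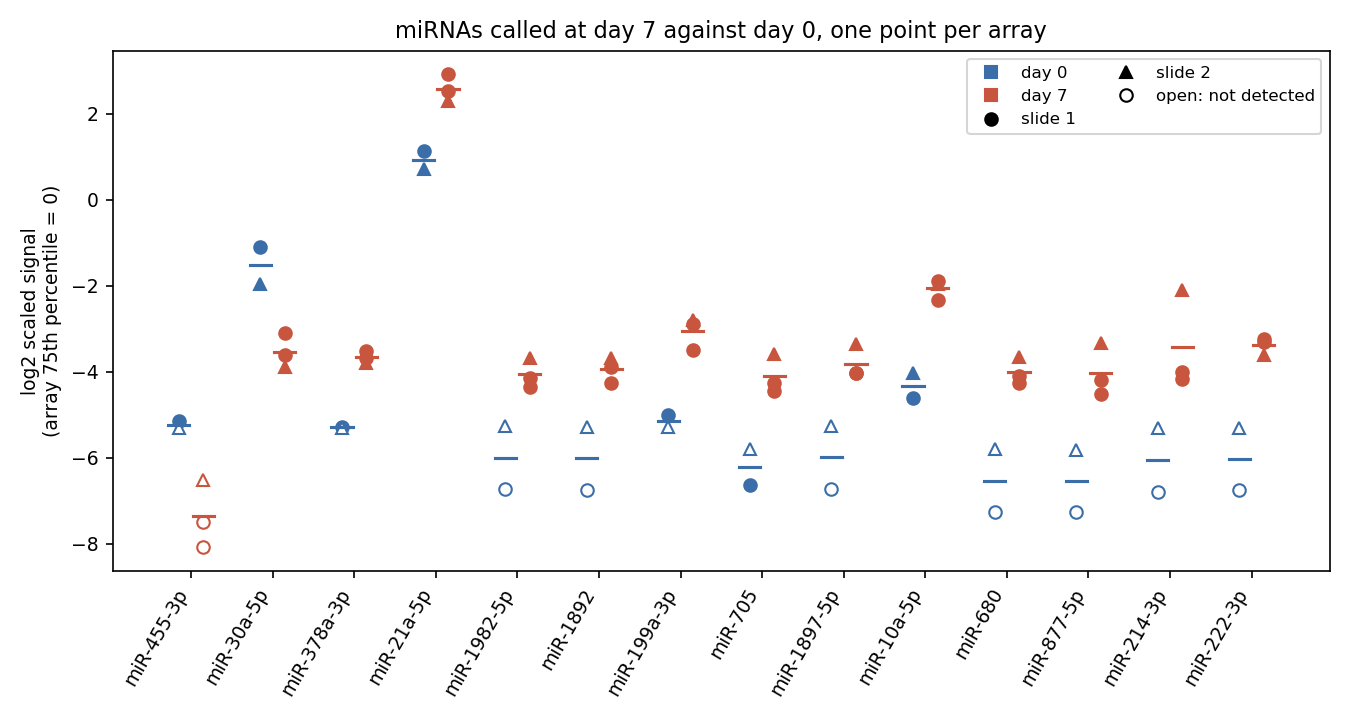
Log2 scaled signal of the 14 miRNAs that passed the test, with 1 point for each array and a bar at each group mean; circles lie on slide 1, triangles on slide 2, and open points were not detected. In all 14 the groups do not overlap, and miR-10a-5p, miR-21a-5p and miR-30a-5p have filled points only.

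miR-10a-5p, a miRNA encoded among the Hoxb genes and known to restrain NF-kappaB signalling in endothelium, had the lowest p of the comparison. Its precursor gene Mir10a holds the mature strand at chr11:96317186-96317208 on the plus strand. Its log2 signal was -4.60 and -4.03 on the day 0 arrays and -2.34, -1.95 and -1.89 at day 7. All 3 day 7 arrays lay above both day 0 arrays, and the spread within each group (SD 0.40 and 0.25) was small beside the gap. The change was 2.26 (SE 0.41, adjusted p = 0.0227), a 4.78-fold rise. In scanner units the signal was 6.73 and 3.41 at day 0 and 63.6, 29.5 and 70.1 at day 7, so that even the dim day 7 replicate 2 read above the brighter day 0 array before any scaling. The change was 2.49 on slide 1 and 2.08 on slide 2. Leaving out 1 of 4 arrays ended the call: the second (adjusted p = 0.0553) or the third day 3 array (0.0582), the third day 7 array (0.0706) or the first day 30 array (0.0658), at changes of 2.17 to 2.26.

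None of the relatives of miR-10a-5p passed the test. miR-10b-5p, which has the seed ACCCUGU as well, was undetected on both day 0 arrays and on day 7 replicate 2 (change -0.26, adjusted p = 0.753). miR-99a-5p and miR-99b-5p, whose seed ACCCGUA differs, changed by -1.02 (adjusted p = 0.121) and -1.44 (adjusted p = 0.0983), and miR-100-5p by -0.19 (adjusted p = 0.81). miR-99a-5p turned to positive under 3 other scalings: none (0.13), the 75th percentile of all miRNAs on the array (0.30) and the dmr control spots (0.15). Of the 5 members of this family 1 was called higher and 0 lower (3.25% and 0.542% over all tested miRNAs), with a median of -0.26 against -0.51 over all 369 tested miRNAs. The -0.51 takes in 92 miRNAs undetected on all 5 arrays. Over the 3 members detected on all 5 arrays the median was -1.02, against -0.26 over the 134 miRNAs so detected. The difference between miR-10a-5p and its relatives was not tested.

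miR-21a-5p, known to increase in injured and inflamed tissues, was the other rise measured on all 5 arrays. The mature strand lies at chr11:86584120-86584141 on the minus strand, in Mir21a. Its log2 signal was 1.14 and 0.70 at day 0 and 2.91, 2.28 and 2.52 at day 7. The lowest day 7 array exceeded the highest day 0 array by more than the SD of either group (0.31 and 0.32). The change was 1.65 (SE 0.41, adjusted p = 0.0393), a 3.13-fold rise, and it was 1.57 on slide 1 and 1.58 on slide 2. The other arm of the hairpin, miR-21a-3p, was detected on day 7 replicate 1 only. Leaving out the first (1.48, adjusted p = 0.13) or the third day 7 array (1.67, adjusted p = 0.156), any single day 3 array (adjusted p = 0.0842 to 0.0915) or the first day 30 array (adjusted p = 0.114) ended the call. With the replicate number as a block it also missed the threshold (1.67, adjusted p = 0.0638), as it did with cyclic loess (1.34, adjusted p = 0.446).

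miR-30a-5p was the single fall measured on all 5 arrays. The miR-30 family is known to restrain autophagy through Becn1 and, in the heart, connective tissue growth factor. The mature strand lies at chr1:23272274-23272295 on the plus strand, in Mir30a. Its log2 signal was -1.09 and -1.97 at day 0 and -3.09, -3.90 and -3.61 at day 7, with no overlap. The change was -2.0 (SE 0.44, adjusted p = 0.0281), a 4.0-fold fall, with -2.26 on slide 1 and -1.92 on slide 2. Its size depended on scaling: -0.85 unscaled (adjusted p = 0.688), -0.68 by the percentile of all miRNAs (adjusted p = 0.717) and -0.82 by the dmr control spots (adjusted p = 0.498), negative in all 3. Scaling to the median (-1.49, adjusted p = 0.0638) and cyclic loess (-1.98, adjusted p = 0.145) also ended the call. So did leaving out the third day 7 array (-1.96, adjusted p = 0.106), any single day 3 array (adjusted p = 0.0613 to 0.0634) or the first day 30 array (adjusted p = 0.0666).

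The other members of the miR-30 family, which read the same kind of target through the seed GUAAACA, gave smaller differences. miR-30c-5p was -2.11 and -3.07 at day 0 and -3.09, -4.10 and -3.47 at day 7, a change of -0.96 (adjusted p = 0.148). The groups did not overlap, by a margin of under 0.1. miR-30b-5p changed by -0.60 (adjusted p = 0.523), miR-30d-5p by -0.47 (adjusted p = 0.415) and miR-30e-5p, undetected on the replicate 2 array of each group, by -0.30 (adjusted p = 0.791). So 1 of 5 members was called lower (0.542% over all tested miRNAs) and 0 higher. All 5 changes were negative, with a median of -0.60 against -0.51 over all tested miRNAs. Over the 4 members detected on all 5 arrays the median was -0.78, against -0.26 over the 134 miRNAs so detected. The 5 changes were again all negative with brightness as a covariate, where miR-30a-5p, miR-30b-5p, miR-30c-5p and miR-30e-5p passed. Under those 3 scalings miR-30b-5p, miR-30c-5p, miR-30d-5p and miR-30e-5p were above 0, and so were the last 2 with scaling to the median.

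**Figure D2:**
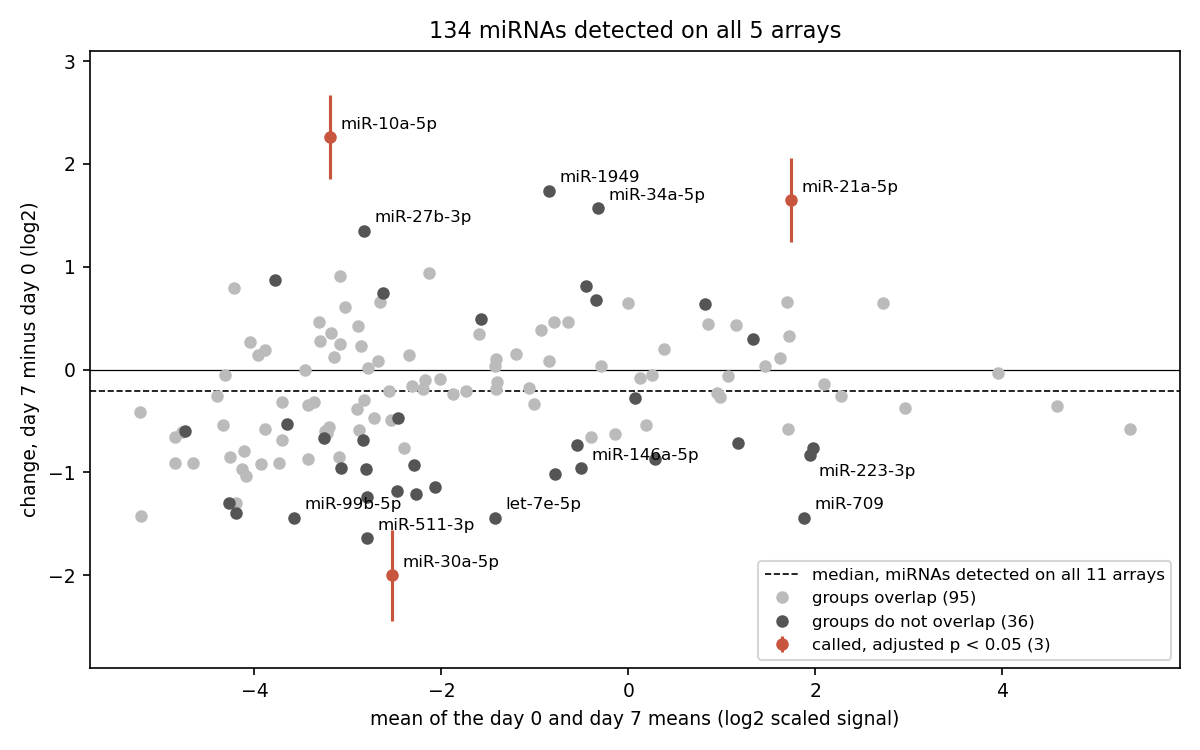
Change (day 7 minus day 0, log2) of the 134 miRNAs detected on all 5 arrays against the mean of both group means; bars are the SE of the 3 called miRNAs and the dashed line is the median of -0.21 over the 126 miRNAs that all 11 arrays detected (the 134 shown have a median of -0.26). miR-10a-5p is the highest and miR-30a-5p the lowest, miR-1949 (1.74, not called) lies between miR-10a-5p and miR-21a-5p (1.65), and 36 further miRNAs without overlap between the groups (dark points) did not pass the test.

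Counting the 3 calls, 39 of the 134 miRNAs detected on all 5 arrays had groups without overlap (29.1%), 12 of them higher (8.96%) and 27 lower (20.1%), against 72 of all 369 tested (19.5%). The 369 include 92 miRNAs undetected on all 5 arrays, so that the shares are not like for like. With groups of 2 and 3 arrays, non-overlap is frequent without any difference. Among the higher ones that were not called miR-1949 changed by 1.74 (adjusted p = 0.0926), miR-34a-5p by 1.57 and miR-27b-3p by 1.35 (adjusted p = 0.121 for both). miR-34a-5p, a target gene of p53, was -1.15 and -1.06 at day 0 and 0.75, 0.32 and 0.33 at day 7. Its day 0 and day 7 values lay far apart for their SDs (0.07 and 0.24), but the fit, whose spread takes in the day 3 arrays with an SD of 1.07 for this miRNA, gave an SE of 0.55. miR-27b-3p and miR-23b-3p (0.81, adjusted p = 0.161), which are cut from a common transcript, were both higher without overlap. Neither passed. miR-23a-3p of the paralogous cluster had a change of -0.71 (adjusted p = 0.258), which turned to positive under the same 3 scalings.

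Among the lower ones that were not called were the 3 miRNAs of the miR-99b, let-7e and miR-125a cluster, known as a cluster that dampens Toll-like receptor responses. let-7e-5p was -0.93 and -0.49 at day 0 and -2.45, -1.73 and -2.26 at day 7 (change -1.44, adjusted p = 0.0926). miR-99b-5p was -2.56 and -3.15 at day 0 and -4.25, -4.68 and -3.96 at day 7 (change -1.44, adjusted p = 0.0983). miR-125a-5p was -2.02 and -1.32 at day 0 and -3.35, -2.32 and -2.98 at day 7 (change -1.21, adjusted p = 0.121). In each the groups did not overlap and none passed. By the percentile of all miRNAs miR-125a-5p was at 0.11. Of the 19 other settings that did not leave out a single array, let-7e-5p passed in 7 and miR-99b-5p in 5, among them the slide as a block for both. Their size depended on the setting: over all 30 it ran from -1.66 to -0.11 for let-7e-5p and from -1.74 to -0.11 for miR-99b-5p. miR-709, an entry disputed as a fragment of longer RNA, changed by -1.44 as well (adjusted p = 0.1), and by -1.71 to -0.12 in other settings.

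miR-511-3p, whose hairpin is intronic to Mrc1, the mannose receptor gene, had the second lowest change of the 134. It was -1.73 and -2.23 at day 0 and -2.93, -4.87 and -3.05 at day 7 (change -1.64, SE 0.58, adjusted p = 0.121). Day 7 replicate 2 lay far under the other day 7 arrays. Over 30 other settings the change ran from -2.36 to -0.31. The 5p arm of the same hairpin was detected on day 0 replicate 1 alone of the 5 arrays (change -1.75, adjusted p = 0.0721), where its signal was 1.92 scanner units, close to the array's lowest detected signal of 1.65.

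Detection also moved between the groups. Of the 1247 miRNAs, 280 were detected on at least 1 of the 5 arrays and 134 on all 5. No miRNA was detected on both day 0 arrays and missing from every day 7 array. In the other direction 29 were undetected on both day 0 arrays and detected on all 3 day 7 arrays, and 42 more were detected on 1 day 0 array and all 3 day 7 arrays. Brightness goes the same way, since the brightest 2 of the 5 arrays are of day 7. The part of brightness in the gains was not tested. Between day 7 replicate 2 (75th percentile 114, total miRNA signal 22368) and day 0 replicate 1 (163 and 26168), which lay on different slides, 47 miRNAs were detected on the former alone and 12 on the latter alone. The 29 gains are among the 47 by their definition, so that these counts are not read as a result on brightness. The lowest signal flagged as detected was 1.65 and 1.61 scanner units on the day 0 arrays and 1.36, 1.39 and 1.63 on the day 7 arrays, so that the flag itself reached slightly lower at day 7.

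**Figure D3:**
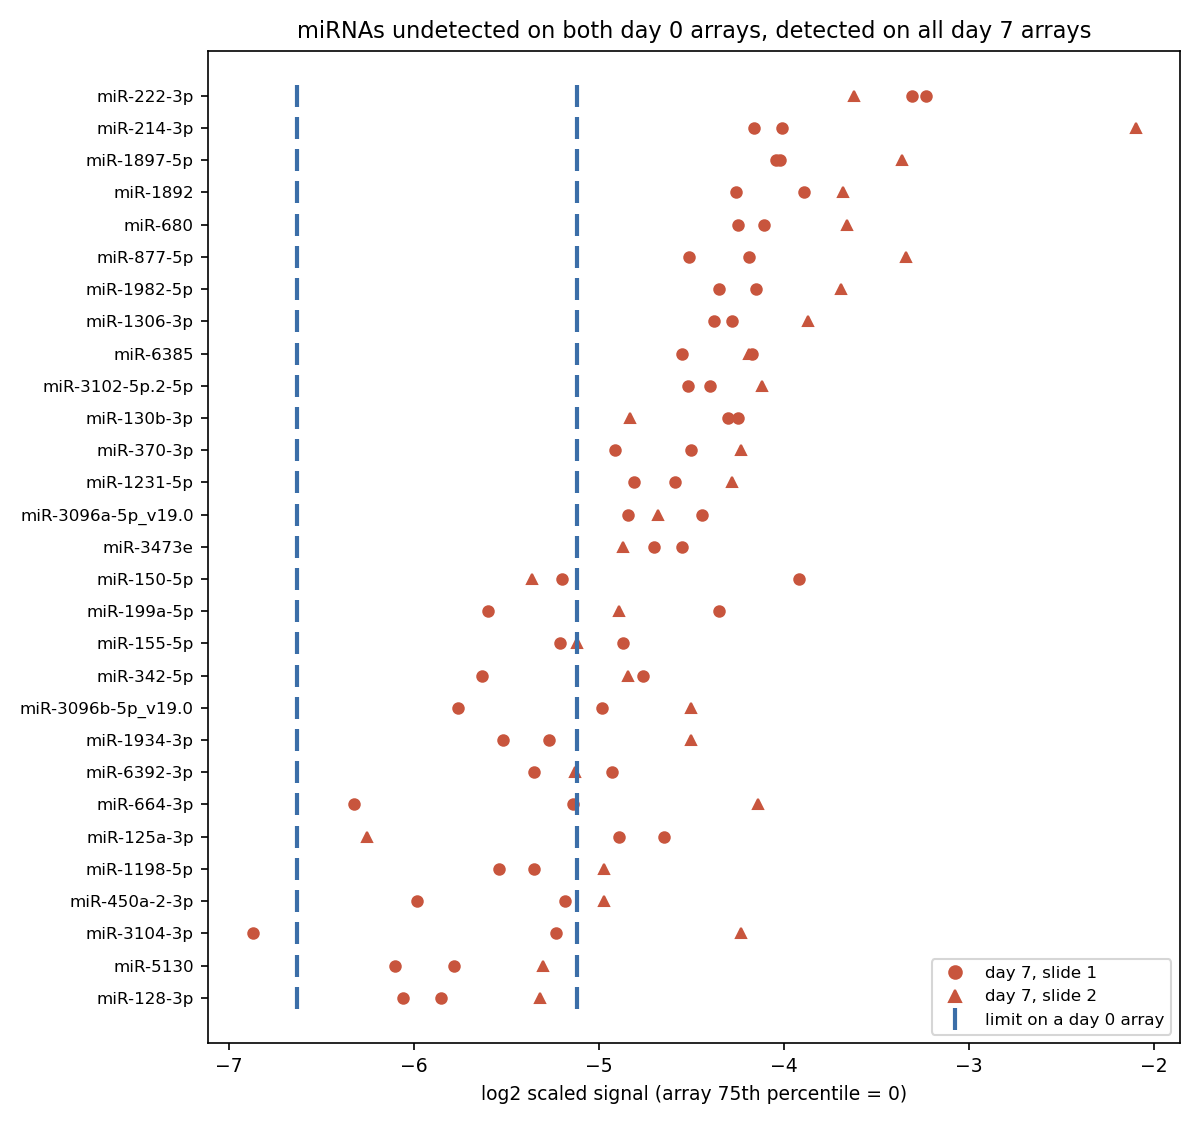
The 29 miRNAs undetected on both day 0 arrays and detected on all 3 day 7 arrays, ordered by the ratio of their day 7 mean to the day 0 limits. Red points are the day 7 log2 scaled signals. Blue ticks are the limits, the lowest detected signal of any miRNA on each day 0 array (-6.63 and -5.12). A miRNA's own limit can lie higher. For the upper 15 every day 7 value lies above both limits shown, and for the other 14 at least 1 day 7 value does not.

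For these 29 the flag chose the members, so their values are given as a description and not as support. A ratio to the limit sets the day 7 mean against a limit on each day 0 array. The limit was the array's lowest detected signal of any miRNA, or the miRNA's own signal where that was higher. The ratio is not a lower bound of the fold, since the signal needed for the flag can differ between miRNAs. On day 0 replicate 1 miR-705 was flagged at 1.65 scanner units with an error of 0.548. The undetected miR-222-3p had an error of 1.52 there, so its own limit can lie higher. The ratios ran from 1.09 to 5.60, with a median of 2.24. An adjusted p printed beside a ratio belongs to the fitted change, in which undetected day 0 values enter at their background. It does not test the ratio. For 15 of the 29 every day 7 value lay above the limits of both day 0 arrays. A miRNA's own limit can lie higher, so these 15 are not read as clear gains. miR-3077-5p, flagged on day 0 replicate 2, read -4.15 there. That is above the lowest day 7 value of miR-1892 (-4.26) and of miR-1982-5p (-4.35), both among the 15. For the other 14, among them miR-155-5p, miR-150-5p, miR-199a-5p and miR-128-3p, at least 1 day 7 value lay within the range that a day 0 array could not have shown. miR-155-5p, a miRNA that rises when Toll-like receptors are engaged, was -5.21, -5.12 and -4.87 at day 7, against limits of -6.63 and -5.12. Its ratio to the limit was 1.75, and its fitted change of 0.98 did not pass (adjusted p = 0.18). On slide 2 the day 7 value and the day 0 limit were both -5.12, and the change there was 0.19.

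miR-222-3p had the highest ratio to the limit of the gains, an order that is not read as one of folds. Together with miR-221-3p it is processed from a common X-linked transcript (chrX:19146901-19146923 and chrX:19146307-19146329, minus strand), and the pair is known to repress the cell cycle inhibitor Cdkn1b and the receptor Kit. miR-222-3p was -3.31, -3.62 and -3.23 at day 7, with scanner signals of 32.6, 9.23 and 27.6 against 1.52 and 1.40 undetected at day 0. The ratio to the limit was 5.60, which is not a lower bound of the fold, and the fitted change was 2.64 (adjusted p = 0.0227). miR-221-3p was detected on day 0 replicate 1 at -3.87, not on replicate 2, and was -2.94, -3.26 and -2.78 at day 7. All day 7 values lay above the detected day 0 value, with a change of 1.58 that did not pass (adjusted p = 0.0983). The call of miR-222-3p ended with cyclic loess (adjusted p = 0.325) and when the same 4 arrays as for miR-10a-5p were left out (adjusted p = 0.0553 to 0.075). Its fitted change of 2.64 went to 1.92 when the first day 0 array was left out, to 3.36 when the second was, and to 1.73 with the highest floor, and the call held in all 3.

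miR-199a-3p and miR-214-3p are stromal miRNAs that share a long transcript made antisense to a dynamin gene. Their mature strands lie at chr1:162217883-162217904 and chr1:162223438-162223459 on the plus strand, and miR-199a-3p has a further copy on chromosome 9. miR-199a-3p was detected on day 0 replicate 1 at -5.0 and on all day 7 arrays at -2.9, -2.79 and -3.50 (change 2.09, adjusted p = 0.0227). miR-214-3p was undetected at day 0 and was -4.01, -2.10 and -4.16 at day 7, at 5.46 times the limit (adjusted p = 0.0393). Day 7 replicate 2 was the highest of the 3 by almost 2 log2 units, and without it the change went from 2.63 to 1.96, at an adjusted p of 0.0377. Without day 0 replicate 1 it was 1.89 and without day 0 replicate 2 it was 3.36. Leaving out any single day 3 array (adjusted p = 0.0674 to 0.0692), the third day 7 array (0.0706) or the first day 30 array (0.0666) ended this call, as did the highest floor (1.69, adjusted p = 0.187). The call of miR-199a-3p ended with the same 4 arrays as that of miR-10a-5p (adjusted p = 0.0553 to 0.0706). Both missed the threshold with cyclic loess (adjusted p = 0.234). The 5p arm miR-199a-5p was also undetected at day 0 and detected on all day 7 arrays, at 1.90 times the limit (adjusted p = 0.156).

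These 2 miRNAs belong to the list of fibroblast and smooth muscle markers, in which 2 of 5 tested members were called higher and 0 lower. Over all tested miRNAs 12 of 369 were called higher (3.25%). The median change of the list was 1.10, against -0.51 over all tested miRNAs and -0.26 over the 134 detected on all 5 arrays. Of the 7 members on the array, the defining smooth muscle markers miR-143-3p and miR-145a-5p were undetected on all 5 arrays, as was miR-214-5p. The summed log2 scaled signal of the list, in which undetected members enter at their background, was -2.80 to -2.56 at day 0 and -2.31 to -1.07 at day 7. In bulk samples more cells of a type and more RNA per cell cannot be told apart. The part of stromal cells in the rise was not tested.

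miR-378a-3p, which sits in an intron of the mitochondrial coactivator gene Ppargc1b, was detected on day 0 replicate 1 at -5.28 and at -3.68, -3.79 and -3.51 at day 7. Its day 7 values lay within a range of 0.3 and all above day 0 (change 1.63, adjusted p = 0.0393), and the other arm was detected on 1 day 7 array only. Leaving out the first (adjusted p = 0.0862) or the third day 7 array (0.167), any single day 3 array (0.0733 to 0.0874) or the first day 30 array (0.106) ended the call, as did cyclic loess (0.446). It also missed the threshold with the replicate number as a block (1.64, adjusted p = 0.0655).

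The remaining rises were in miRNAs whose function in macrophages is little described. miR-680 (3.65 times the limit, adjusted p = 0.0227) and miR-877-5p (3.62 times the limit, adjusted p = 0.0281) were undetected at day 0. The fitted changes of both (2.53) were 1.80 without day 0 replicate 1 and 3.26 without day 0 replicate 2. With the highest floor miR-680 was 1.11 (adjusted p = 0.0391) and miR-877-5p 1.10, no longer called (adjusted p = 0.182). Both calls ended with cyclic loess (adjusted p = 0.164) and when the same 4 arrays as for miR-10a-5p were left out (adjusted p = 0.0553 to 0.0706). miR-680 gave 17.0, 9.01 and 15 scanner units at day 7 against 1.07 and 0.997 at day 0. miR-1897-5p (4.19 times the limit) and miR-1892 (3.81 times, both with an adjusted p of 0.0393) were undetected at day 0 as well. So was miR-1982-5p (3.50 times the limit, adjusted p = 0.0486). miR-705 (change 2.10, adjusted p = 0.0281) was flagged on day 0 replicate 1 at 1.65 scanner units, the lowest detected signal of that array.

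The last 4 of these calls changed with several settings. Without day 0 replicate 1 the fitted changes of miR-1897-5p, miR-1892 and miR-1982-5p went from 2.19, 2.07 and 1.93 to 1.45, 1.34 and 1.20, and without day 0 replicate 2 they were 2.92, 2.80 and 2.67. Fitted to the authors' deposited table they missed the threshold (adjusted p = 0.0891, 0.0718 and 0.129), as did miR-705 (adjusted p = 0.0551). With the highest floor miR-1897-5p (1.31, adjusted p = 0.117), miR-1982-5p (1.05, adjusted p = 0.0585) and miR-705 (1.01, adjusted p = 0.0697) were not called, and miR-1892 was (1.17, adjusted p = 0.0136). Quantile normalization ended the call of miR-705 (adjusted p = 0.0605), and cyclic loess ended all 4 (adjusted p = 0.0792 to 0.346). All 4 ended when any single day 3 array, the third day 7 array or the first day 30 array was left out (adjusted p = 0.059 to 0.156), and all but miR-705 without the first day 7 array (adjusted p = 0.063 to 0.0862). The dim day 7 replicate 2 had the highest scaled value of the 3 day 7 arrays for 6 of the 7 gains that were called, for 18 of all 29 gains (62.1%) and for 69 of the 134 miRNAs detected on all 5 arrays (51.5%).

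The other lower call, miR-455-3p, was not measured on both sides. It was detected on day 0 replicate 1 alone, at 4.61 scanner units, and read 1.41 on day 0 replicate 2 and 1.20, 1.24 and 1.43 on the day 7 arrays, all undetected. Its change of -2.14 (adjusted p = 0.0281) therefore includes the background shift given above, and within slide 2, where neither array detected it, the change was -1.22. With the highest floor the change was 0.00. The call also ended unscaled, by the percentile of all miRNAs, by the dmr control spots, with quantile normalization and with cyclic loess (-1.34 to -0.57, adjusted p = 0.168 to 0.375). Leaving out any single day 3 array, the first or the third day 7 array or the first day 30 array ended it too (adjusted p = 0.0613 to 0.106).

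**Figure D4:**
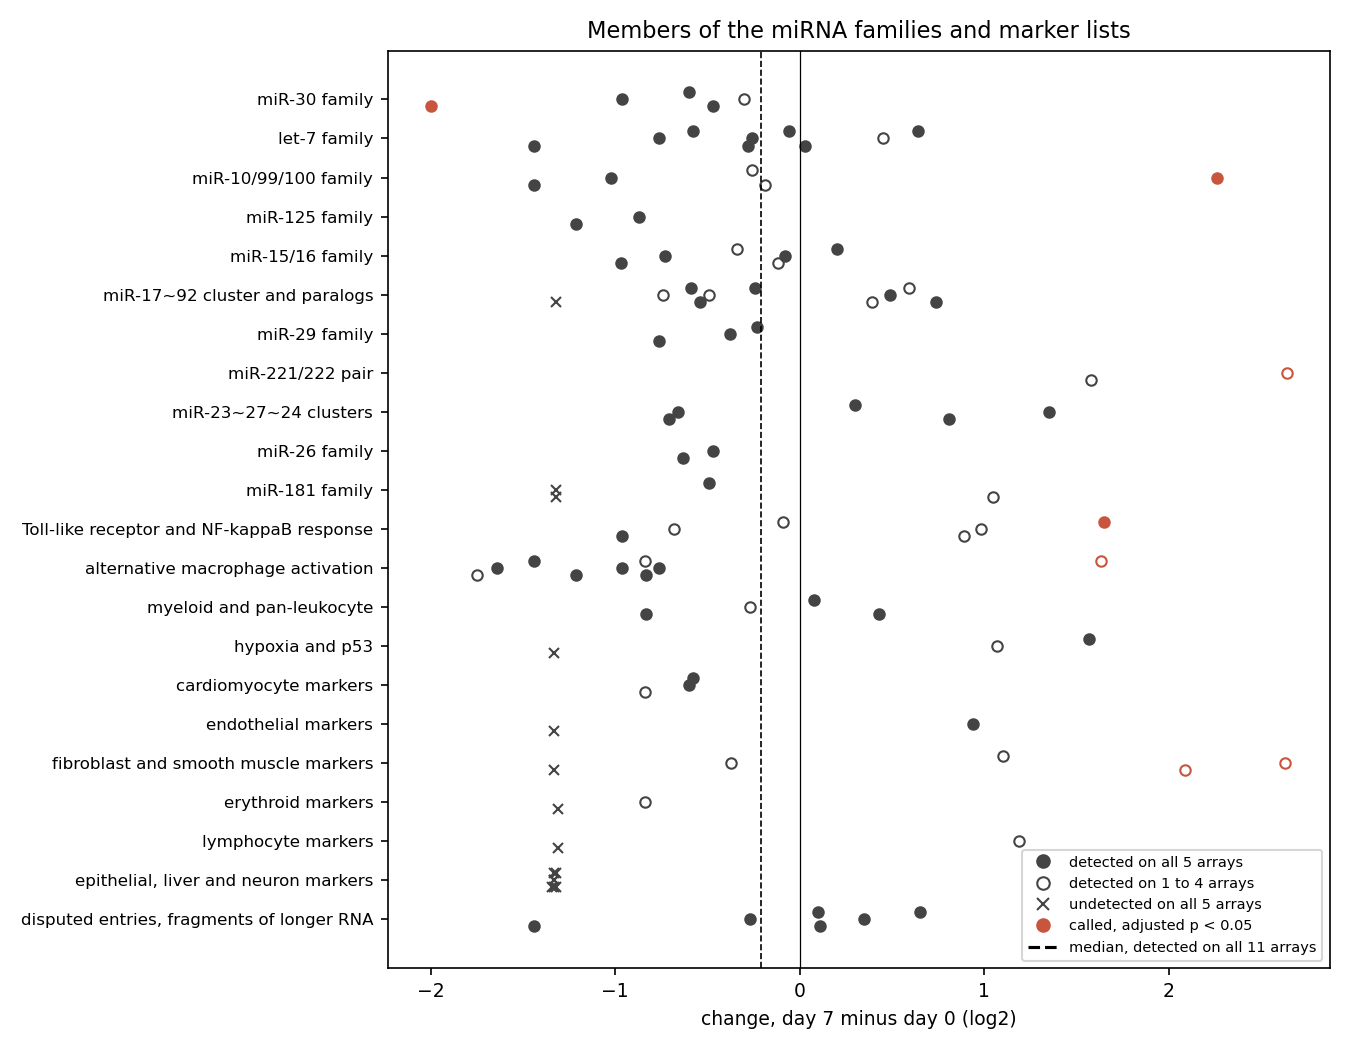
Change (day 7 minus day 0, log2) of each tested member of the families and marker lists; filled points were detected on all 5 arrays, open points on 1 to 4 and crosses on none, red marks the called miRNAs and the dashed line is the median of -0.21 over the 126 miRNAs detected on all 11 arrays. Called members appear in 6 lists, and the crosses gather near the background shift of -1.33.

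Families and pathways were read by how many members were called, beside 3.25% called higher, 0.542% called lower and a median of -0.51 over all 369 tested miRNAs. That median takes in 92 miRNAs undetected on all 5 arrays, and over the 134 detected on all 5 it was -0.26. Among 9 tested miRNAs listed for alternative macrophage activation 1 was called higher, miR-378a-3p, and 0 lower, with a median of -0.96. Its members miR-511-3p, miR-99b-5p and miR-125a-5p gave the low values above. The list of Toll-like receptor and NF-kappaB response had 1 of 6 higher, miR-21a-5p, and 0 lower (median 0.40). miR-146a-5p, which feeds back on that pathway through Traf6 and Irak1, was 0.31 and -0.38 at day 0 and -0.69, -1.77 and -0.51 at day 7, and did not pass (change -0.96, adjusted p = 0.318). It turned to positive under the same 3 scalings (0.20 to 0.37).

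No member of the let-7 family was called (9 tested, median -0.26), nor of miR-15/16 (6 tested, -0.23), miR-17-92 and its paralogs (10 tested, -0.36), miR-23/27/24 (5 tested, 0.30), miR-29 (3 tested, -0.38), miR-26 (2 tested, -0.55), miR-125 (2 tested, -1.04) or miR-181 (4 tested, -0.90). Of the miR-181 members 2 were undetected on all 5 arrays and so at background, while miR-181a-5p changed by -0.49 and miR-181b-5p by 1.05. Of the hypoxia and p53 list 0 of 3 passed; the hypoxia-induced miR-210-3p changed by 1.07 (adjusted p = 0.121). The myeloid and pan-leukocyte list had 0 of 4 called (median -0.10). miR-223-3p, the abundant myeloid miRNA, was 2.79 and 1.93 at day 0 and 1.72, 1.19 and 1.68 at day 7 (change -0.83, adjusted p = 0.18), and its sign turned under the same 3 scalings (0.32 to 0.49). miR-142a-3p, a pan-haematopoietic miRNA, overlapped between the groups (change 0.08, SE 0.55, adjusted p = 0.936). The list of disputed entries had 0 of 6 called (median 0.11).

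Apart from the fibroblast and smooth muscle list, 0 members of the marker lists of other cells were called. Of the cardiomyocyte list 0 of 3 tested members were called (median -0.60), miR-208a-3p, miR-208b-3p and miR-499-5p were undetected on all 5 arrays, and the summed log2 signal was -2.87 to -1.92 at day 0 and -3.45 to -2.94 at day 7. The endothelial miR-126a-3p gave -3.95 and -1.26 on the day 0 arrays and -1.55, -1.80 and -1.63 at day 7, so that the day 0 arrays differed from each other (SD 1.90) by more than the group means did (change 0.94, adjusted p = 0.294). The erythroid list (0 of 2 called, median -1.07) had 3 of 4 members undetected on all 5 arrays and miR-451a detected on 1 day 7 array. The lymphocyte list (0 of 2 called, median -0.06) had miR-150-5p as a gain at 2.06 times the limit (adjusted p = 0.177). Its other tested member, miR-150-3p, was undetected on all 5 arrays, so that its change of -1.31 is background. All 9 epithelial, liver and neuron markers were undetected on all 5 arrays, so that the median change of -1.33 over the 7 tested is background.

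Levels of the called miRNAs on the brighter arrays of the study place day 7 beside the other stages, without a test here. Day 3 arrays hold another population, Ly6chigh/CX3CR1low. miR-21a-5p was 0.92 ± 0.31 (SD, n = 2) at day 0, 2.57 ± 0.32 (n = 3) at day 7, 4.39 ± 0.10 (n = 3) at day 3 and 3.78 ± 0.02 (n = 2, after averaging replicates 2 and 3) at day 30. Its day 7 level lay above uninjured hearts and under both other stages, with no overlap of the mean ± SD ranges. miR-10a-5p was -4.32 ± 0.40 at day 0, -2.06 ± 0.25 at day 7, -1.96 ± 0.17 at day 3 and -2.62 ± 0.01 at day 30, and its day 3 and day 7 levels did not differ beyond their spread. miR-30a-5p was -1.53 ± 0.63 at day 0, -3.53 ± 0.41 at day 7, -4.35 ± 0.04 at day 3 and -1.12 ± 0.13 at day 30, so that the day 30 mean lay within 1 SD of the day 0 mean. miR-214-3p was -3.42 ± 1.15 at day 7, -6.21 ± 0.16 at day 3 and -6.51 ± 0.15 at day 30.

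**Figure D5:**
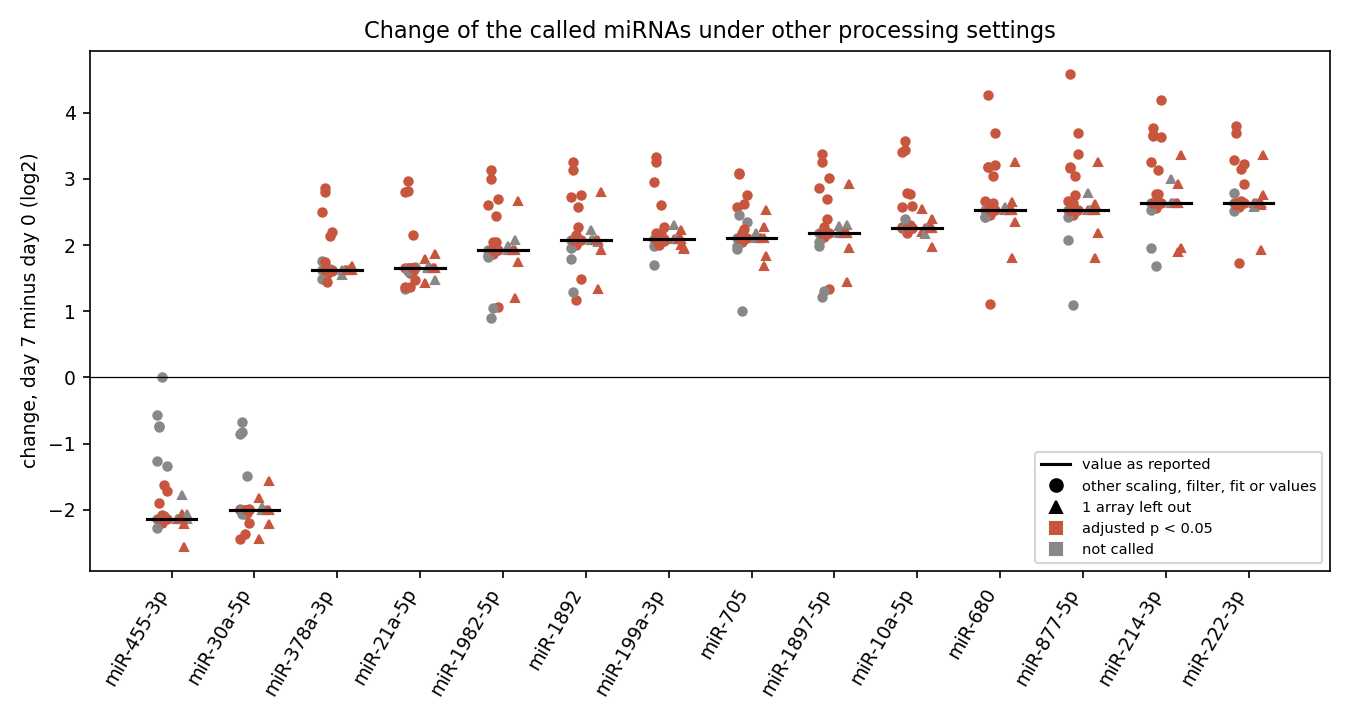
Change (day 7 minus day 0, log2) of the 14 called miRNAs as reported (black bars) and under 30 other settings, where circles are another scaling, filter, fit or set of values and triangles leave out 1 array; red points passed an adjusted p of 0.05. No red point changes sign, and miR-10a-5p lies between 1.97 and 3.58 and passes in 24 of 30 settings.

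Under other settings miR-10a-5p passed most often, in 24 of 30, followed by miR-222-3p, miR-199a-3p and miR-680 with 22 of the 29 in which each could be tested. miR-21a-5p passed in 20 of 30 and miR-30a-5p in 18 of 30. With only the 5 arrays of this comparison in the fit, which leaves 3 residual degrees of freedom, miR-10a-5p had an adjusted p of 0.279 at the same change of 2.26, and 0 miRNAs passed by limma (24 at an unadjusted p under 0.05). With array brightness as a covariate all 14 calls were kept among 69.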

How the data were processed

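Per the file headers, the 11 deposited scanner files hold a total gene signal (intensity in linear scanner units), its error (intensity) and a detection flag (0 or 1) for 1247 miRNAs. Per the submitters' processing notes they come from Agilent Feature Extraction, with no version stated there. The authors' deposited table holds log2 values of 317 miRNAs, nearly equal between arrays once sorted; their normalization is not stated.

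Signals were divided by the array's 75th percentile over 126 miRNAs present on every array, floored at 0.00271 (log2 -8.53, the median of the arrays' lowest detected values) and logged. Tests ran on 369 miRNAs flagged on 2 or more of 11 arrays with limma 3.58.1 in R 4.3.3. The model held 4 groups and 10 samples with 6 residual degrees of freedom, and p-values were adjusted by Benjamini-Hochberg over all 369. The second and the third day 30 arrays lay within the scanner error of each other (0.209 times the squared difference expected, against 2.74 to 43.1 for other pairs) and were averaged as 1 sample. The tests were tried on simulated data. RefSeq sequences were matched by name, for 48 of 58 named miRNAs.

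The 5 arrays, 22 lists, alternatives and naming rule were chosen with earlier results of these data known, and the lists were written from general knowledge. Named were all called miRNAs, and the 8 largest changes each way without overlap among miRNAs detected on all 5 arrays. Also named were the 8 largest ratios to the limit, the extreme members of each list and the families of called miRNAs. Set by name were 5 immune miRNAs (miR-142a-3p, miR-223-3p, miR-21a-5p, miR-146a-5p, miR-155-5p). Further gains of detection, miR-21a-3p, miR-511-5p, miR-210-3p and other list members were named after their values were seen.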

Additional observations from a re-analysis of the deposited data

How the results depend on the processing

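The 14 calls, and the 3 among miRNAs detected on all 5 arrays, depended on scaling. They were 45 and 18 without scaling, 61 and 27 when the percentile was taken over all miRNAs, 80 and 37 when dmr control spots set the scale, and in these 3 settings every call was higher. They were 32 and 5 with scaling to the median (31 higher, 1 lower), 39 and 11 with quantile normalization (29 higher, 10 lower), 1 and 1 with cyclic loess, 22 and 6 in the authors' table (15 higher, 7 lower) and 17 and 7 with the highest floor (12 higher, 5 lower). They were 24 and 6 with the slide as a block and 69 and 29 with brightness as a covariate (47 higher, 22 lower). With no filter there were 1011 and 16, of which 983 were lower, since background values then enter the test. With only the 5 arrays in the fit, and with array quality weights (whose estimate did not converge), there were 0 and 0 by limma (24 and 77 at an unadjusted p under 0.05, with 6 and 10 of them detected on all 5 arrays). Among miRNAs detected on at least 2 of the 5 arrays, a filter chosen after seeing the data, 18 and 5 passed. Testing only the miRNAs detected on all 5 arrays gave 3 calls, and both counts are then the same by construction. The causes of the other differences were not tested. Leaving out 1 array gave 0 to 169 and 0 to 32. Of 1722 changes of named miRNAs under other settings 1389 kept direction and side of the threshold, 133 lost a call, 104 gained a call, 96 changed sign without a call on either side, and 0 called values changed sign. The replicate block gave 12 and 2 calls and ended those of miR-21a-5p and miR-378a-3p. The deviations of arrays with the same number correlated over 134 miRNAs at 0.51 (replicate 1) and 0.60 (replicate 2), but the number follows the slide, so that it is not read as pairing. Signals near background limit the gains: for 14 of 29 the limit of a day 0 array reached into the day 7 values. A miRNA's own limit can lie above the array's lowest detected signal, so this can hold for more of them.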

Other observations

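Strands rich in G were frequent among the gains of detection. The median share of G was 40.9% in the 25 of 29 gains with a RefSeq sequence. It was 45.5% in 13 of the 15 gains with every day 7 value above the lowest detected signal of both day 0 arrays. Over the 108 of 134 miRNAs detected on all 5 arrays with a sequence it was 27.3%. The 2 called miRNAs detected on all 5 arrays that rose had 21.7% (miR-10a-5p) and 22.7% (miR-21a-5p). Of the 29 gains 23 were also detected on all 6 arrays of day 3 and day 30, and in 6 the day 3 mean lay above the day 7 mean, among them miR-130b-3p (-2.60 against -4.46). In 0 of the 29 did the day 30 mean. The 29 were chosen by detection at day 7, which favours high day 7 values. Median scaled background was also higher on the day 7 arrays (-8.10, -6.54 and -7.52) than on the day 30 arrays (-10.24, -9.53 and -9.95). No share over all tested miRNAs was counted, so these counts are not read as a course over time.

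Both arms were measured for some hairpins. miR-877-5p was a gain (3.62 times the limit) while miR-877-3p, detected on all 5 arrays, changed by -0.91 (adjusted p = 0.344). miR-125a-3p was a gain at 1.53 times the limit (adjusted p = 0.129) while miR-125a-5p changed by -1.21 (adjusted p = 0.121). On slide 2 miR-125a-3p changed by -0.46, and its day 7 value there (-6.25) lay under the day 0 limit of -5.12. Other hairpins with a gain had both arms higher: miR-199a (1.10 and 2.09 for 5p and 3p), miR-1897 (2.19 and 0.96) and miR-342 (1.46 and 0.43). For miR-130b and miR-150 the arm that was not a gain was undetected on all 5 arrays. None of these differences between arms was tested.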
